A study of Mus musculus with 2 samples.

Results

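The 9 genes described here are interferon effector genes: Mx1, Mx2, Ifi44, Ifi44l, Isg20, Rtp4, Xaf1, Ifi27l2a and Ifi35. They were chosen by symbol, 9 of the 23238 symbols in the deposited read counts, and all 9 symbols occur in both libraries. One library came from a control culture of bone marrow-derived dendritic cells and 1 from a culture exposed to 100 nM of UNE-C1 over 24 h, both from female C57BL/6 mice aged 7 weeks. The cells of both groups were antigen-presenting cells grown in the cytokine GM-CSF (20 ng/ml, supplied again on day 3) and collected as immature dendritic cells on day 6. Neither the addition to the control culture, if any, nor the number of mice is stated in the labels. UNE-C1 is a domain of the enzyme cysteinyl-tRNA synthetase, known as a ligand of Toll-like receptors. The comparison asks which transcripts differed after its addition. Each group is a single library, so the differences below have no replicate check and no p-value, and the intervals cover counting error only.

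Interferons signal through receptors, Janus kinases and STAT proteins. A complex that includes STAT2 and IRF9 binds interferon-stimulated response elements (ISREs) in promoters and turns on a large set of genes, many of which act against viruses in the cell that makes them. Mx1 and Mx2 encode dynamin-like GTPases: in mice with intact alleles the Mx1 protein is nuclear and blocks influenza viruses, and the Mx2 protein is cytoplasmic. Isg20 encodes a 3'-to-5' exonuclease that degrades RNA, Rtp4 a zinc finger protein first known as a chaperone of cell surface receptors, Xaf1 a partner of the apoptosis inhibitor XIAP, Ifi27l2a a small hydrophobic protein of the ISG12 family, and Ifi35 a protein that binds NMI. Ifi44 and Ifi44l encode related proteins whose antiviral roles are less well understood.

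Sequencing gave 14857198 reads for the control and 15975821 for UNE-C1. Levels are CPM (read counts scaled to library size) on library sizes scaled by TMM, a method that sets most genes to no change, and a fold change is log2((CPM + 1)/(CPM + 1)), UNE-C1 over control. The comparison took in the 10469 genes that reached a floor of 50 reads in either library. The libraries were made from the 3' ends of messenger RNA, so long transcripts do not draw more reads than short ones. The label of the cells was checked against 13 dendritic cell markers. They summed to 16278 CPM without and 14434 CPM with UNE-C1. H2-Aa, H2-Eb1, H2-Ab1 and Cd74 were abundant in both libraries, and Cd209a had no read in either. Flt3 (8.55 and 4.37 CPM) and Zbtb46 (3.71 and 4.37 CPM) were low in both. Csf1r, from the macrophage and monocyte markers, stood at 2335 and 1468 CPM. Whether these levels tell the cells from macrophages was not tested. Of the 12 markers past the floor, 3 were at least 2-fold lower with UNE-C1, against 9.42% of all genes compared. They were Clec9a (4.36-fold), Itgax (3.08-fold) and Csf2ra (2.40-fold). At least 2-fold higher was 1, Xcr1 (4.13-fold), against 9.31%, and 8 differed by less than 2-fold.

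Of the 9 genes, 8 passed the floor, and with UNE-C1 those 8 were at least 2-fold higher, against 9.31% of all genes compared. At least 4-fold higher were 7 of the 8, against 3.01% of all genes, and at least 8-fold higher were 3, Isg20, Ifi44 and Mx2, against 1.17%. Isg20 and Ifi44 also passed 16-fold on the log2((CPM + 1)/(CPM + 1)) scale, as did 0.458% of all genes. Mx2, at 3.99 on that scale, fell just short, while its plain CPM ratio was 17.6. Scaled by total counts instead, the 4-fold count was 5. The 8 log2 fold changes had a median of 2.55, while the median of all genes compared was -0.00. Reads on the 9 genes together numbered 8216 without and 54633 with UNE-C1, 491 and 3852 CPM, a ratio of 7.84 (95% interval 7.66 to 8.03). The ninth gene, Ifi44l, had no read in either library.

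**Figure D1:**
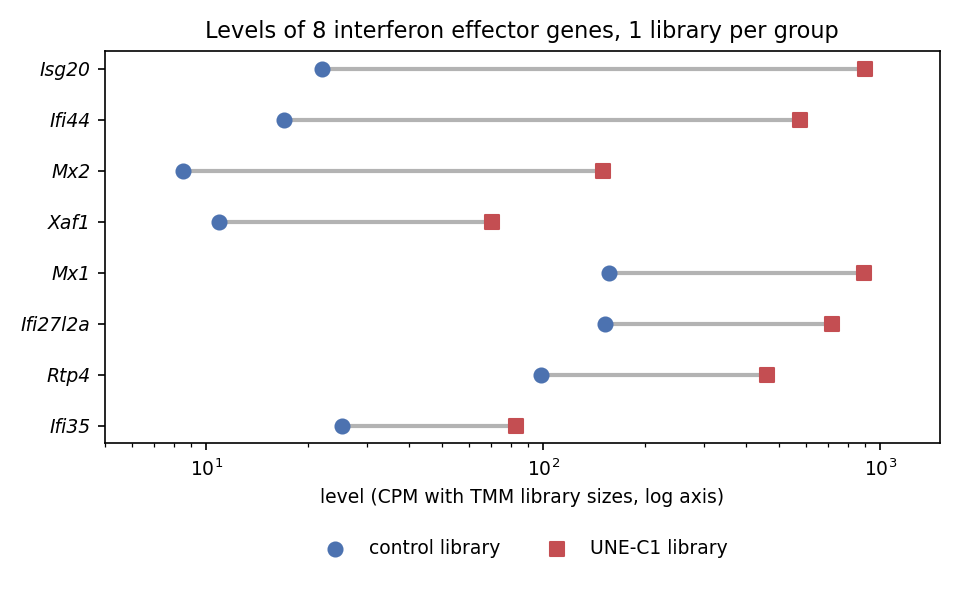
Level of 8 genes in the control library (circles) and the UNE-C1 library (squares), in CPM on a log axis, 1 library per group and no error bar; genes are ordered by ratio from Isg20 (top) to Ifi35. In each gene the UNE-C1 value lies to the right, and Isg20 and Mx1 end at nearly the same level, 901 and 893 CPM, from control levels of 22.0 and 157 CPM.

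Promoter letters from RefSeq (GRCm38.p6) matched 5 of the 9 genes, in 7 windows that run from 250 bases before a start site to 50 after it. They are shown because these genes are known for response elements near their start sites. Mx1, Mx2, Rtp4 and Ifi27l2a had no entry. The ISRE letters, GAAA followed by 2 free bases and GAAA, searched on both strands, were in none of the 7 windows and in 3.44% of all 32851 windows. The STAT site letters TTCNNNGAA (the GAS element) were in windows of Isg20 and Ifi35 and in 8.30% of all windows, and the NF-kappaB letters, GGG with 2 free bases and TTTCC, in none of the 7 and in 1.63% of all. A shorter core of the sites that interferon regulatory factors bind, AANNGAAA, was added after the letters had been seen, so its count supports nothing. It was in 5 of the 7 windows, those of Ifi44, Ifi44l, Xaf1 and Ifi35 and 1 of the 3 of Isg20, and in 23.9% of all windows. Stretches with this core are printed 5' to 3' along the strand of the gene. Positions count from the start site of the window, which can differ from the GENCODE gene borders given below. Capitals mark AANNGAAA or its reverse complement, and matches may overlap.
Ifi44, chr3:151749911-151749990, minus strand, the 80 bases before the start: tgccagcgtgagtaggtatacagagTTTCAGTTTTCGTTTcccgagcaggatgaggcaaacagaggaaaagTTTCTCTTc
Xaf1, chr11:72301549-72301628, plus strand, the 80 bases before the start: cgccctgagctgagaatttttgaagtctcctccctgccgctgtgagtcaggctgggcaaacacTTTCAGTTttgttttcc
Xaf1, chr11:72301628-72301657, plus strand, 30 bases across the start: ctgtgtgcaaagAAACGAAActccacagaa
Isg20, chr7:78913325-78913404, plus strand, 80 bases that end 20 before the start: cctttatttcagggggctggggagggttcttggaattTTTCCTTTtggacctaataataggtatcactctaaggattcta
Ifi35, chr11:101448414-101448443, plus strand, 30 bases past the start: cagaattcacagAAATGAAAgtggaagtga
Ifi44l, chr3:151763041-151763120, minus strand, 80 bases that end 150 before the start: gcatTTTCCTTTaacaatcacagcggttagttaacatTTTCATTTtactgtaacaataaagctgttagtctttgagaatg
Ifi44 and Ifi44l both hold the core, and any link between its position and the reads was not tested. In Ifi44 a pair of overlapping matches lies 55 to 41 bases before the start of its window. In Ifi44l the matches lie farther off, the nearer one starting 192 bases before the start. The GENCODE border of Ifi44, at 151749960, falls inside its pair of matches (151749951 to 151749965), so the distance depends on the annotation.

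The Mx GTPase genes lie on chromosome 16 (positions throughout are on GRCm38), with Mx1 at 97447035 to 97462907 on the minus strand and Mx2 at 97535308 to 97560900 on the plus strand. Many laboratory strains, C57BL/6 among them, carry defective alleles of both, a deletion of exons in Mx1 and a frameshift in Mx2. RefSeq lists both genes as transcribed pseudogenes in this assembly, whereas GENCODE M21 lists Mx1 as protein-coding and Mx2 as a polymorphic pseudogene. Of 10 Mx1 transcripts in GENCODE, 4 are coding and 3 are marked for nonsense-mediated decay. The counts below are therefore of transcripts only.

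Mx1 had 2627 control reads and 12667 with UNE-C1 (157 and 893 CPM). It was the most abundant of the 9 genes in the control, and its ratio was 5.69 (95% interval 5.45 to 5.93, log2 fold change 2.50). Mx2 had 143 and 2135 reads (8.55 and 151 CPM), a ratio of 17.6 (14.9 to 21.0, log2 fold change 3.99). Mx2 thus had the lowest control level of the 8 genes with reads and the third highest fold change, 49th of the 10469 genes compared, while Mx1 was 193rd. In reads, Mx2 stood at 0.0544 of Mx1 without UNE-C1 and 0.169 of Mx1 with it. The ratio of these 2 values, in which library size cancels, was 3.10 (exact interval 2.60 to 3.71). Few 3' stretches were shared by the pair: of 1334 distinct 50-base stretches in the last 500 bases of Mx1 coding transcripts, 30 also occurred in Mx2 transcripts, and none of the 903 from the last 500 bases of Mx2 occurred in another gene. The cellular dynamins Dnm2, which cuts endocytic vesicles from the membrane, and Dnm1l, which divides mitochondria, had log2 fold changes of 0.44 and 0.41. Dnm1 (1 and 2 reads) and Dnm3 (3 and 0 reads) were below the floor.

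Isg20, the exonuclease gene (chromosome 7, 78913424 to 78920396, plus strand), showed the largest difference of the 9. Its 368 control reads stood against 12775 with UNE-C1, 22.0 and 901 CPM. Its ratio was 41.0 (36.9 to 45.5, log2 fold change 5.29), the 17th highest fold change of the 10469. In the UNE-C1 library it was the most abundant of the 9 genes, just above Mx1. Other exonucleases of the same family did not share the difference. Aen, a nuclease induced by p53, ends 2215 bases from Isg20 and had 151 and 84 reads, 1.52-fold lower in the UNE-C1 library. Isg20l2, a nucleolar exonuclease, had 166 and 52 reads, 2.71-fold lower, and Rexo4 had a log2 fold change of 0.33. Isg20 had 2.44 times the reads of its neighbour Aen without UNE-C1 and 152 times with it, a ratio of ratios of 62.4 (46.4 to 84.1).

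Ifi44 and Ifi44l lie side by side on chromosome 3, at 151730922 to 151749960 and 151758737 to 151762892, both on the minus strand. Ifi44 had 284 control reads and 8179 with UNE-C1, 17.0 and 577 CPM, a ratio of 34.0 (30.2 to 38.4, log2 fold change 5.01). Only Isg20 among the 9 had a higher fold change. Ifi44l was listed at 0 in both libraries, where a count of 0 leaves room for 0.179 CPM in the control and 0.211 CPM with UNE-C1, so no fold is given. GENCODE tags the Ifi44l gene as affected by an error in the reference genome. It annotates 1 transcript for it, with 3 exons, against as many as 8 in Ifi44 transcripts. None of the 451 distinct 50-base stretches at the 3' end of either coding transcript occurred in another gene.

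Rtp4 (chromosome 16, 23520291 to 23614222, plus strand) had 1643 control reads and 6544 with UNE-C1, 98.2 and 461 CPM. The ratio was 4.70 (4.45 to 4.96, log2 fold change 2.22). Its annotated interval overlaps Masp1 on the other strand, a complement protease gene with no read in either library. The other receptor transporter genes Rtp1, Rtp2 and Rtp3 were also without a read, so that Rtp4 was the one member of its family detected here.

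Ifi27l2a (chromosome 12, 103442167 to 103443680, minus strand) had 2545 control reads and 10159 with UNE-C1, 152 and 716 CPM. The ratio was 4.71 (4.51 to 4.92, log2 fold change 2.23), close to that of Rtp4. Its neighbour Ifi27, another member of the ISG12 family, went the other way, with 1129 and 303 reads, 67.5 and 21.4 CPM, 3.16-fold lower (2.78 to 3.60). Ifi27l2a had 2.25 times the reads of Ifi27 without UNE-C1 and 33.5 times with it, a ratio of ratios of 14.9 (13.0 to 17.1). Names and borders of these genes overlap between annotations: RefSeq gives Ifi27 as an older symbol of Ifi27l2a, and its Ifi27l2a interval, 103433873 to 103443680, covers the whole of Ifi27, which lies on the other strand. Since the sources used here do not give the annotation and strand setting of the counting, reads could have been split between them. The third gene of the cluster, Ifi27l2b, had 1 read in each library, and 2 of 414 distinct 50-base stretches of Ifi27l2a occurred in it. Nr4a1, an orphan nuclear receptor that ISG12 proteins bind, had 59 and 24 reads.

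Xaf1 (chromosome 11, 72301629 to 72313733, plus strand) had 182 control reads and 1000 with UNE-C1, 10.9 and 70.5 CPM. The ratio was 6.48 (5.53 to 7.63, log2 fold change 2.59), and in the UNE-C1 library Xaf1 was the least abundant of the 8 genes. Of its 1038 distinct 3' stretches, 36 occurred in transcripts of other genes. The inhibitors of apoptosis that it is known to act on differed less. Xiap was 1.19-fold lower, Birc2 1.44-fold lower and Birc3 1.27-fold higher, all short of 2-fold.

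Ifi35 (chromosome 11, 101448407 to 101458698, plus strand) showed the smallest difference of the 8. It had 424 control reads and 1174 with UNE-C1, 25.3 and 82.8 CPM, a ratio of 3.27 (2.92 to 3.66, log2 fold change 1.67). Its binding partner Nmi had 373 and 852 reads, 22.3 and 60.1 CPM, and a ratio of 2.69 (2.38 to 3.05). The 2 genes of this complex thus had like levels in each library. Among the 11 listed relatives and partners past the floor, 1 was at least 2-fold higher (Nmi), against 9.31% of all genes. At least 2-fold lower were 2 (Ifi27 and Isg20l2), against 9.42%. The median log2 fold change over the 11 was -0.25. Of 18 names on that list, 17 were in the files; the other, Ifi27l1, is an older symbol of Ifi27.

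**Figure D2:**
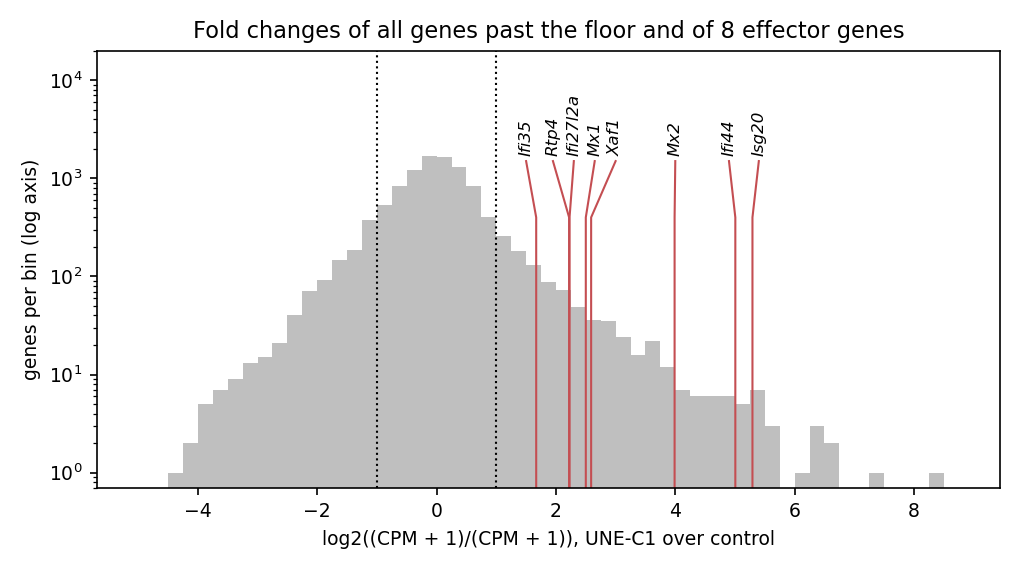
Grey bars give the number of genes per bin of 0.25 in log2((CPM + 1)/(CPM + 1)), UNE-C1 over control, for the 10469 genes past the floor, on a log count axis; red lines mark 8 effector genes and dotted lines a 2-fold difference. The 8 genes lie from 1.67 (Ifi35) to 5.29 (Isg20), Isg20 and Ifi44 apart from the group between Ifi35 and Xaf1 (2.59).

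In order of ratio the genes were Isg20, Ifi44, Mx2, Xaf1, Mx1, Ifi27l2a, Rtp4 and Ifi35. Of the 7 pairs of neighbours in this order, 5 differed by more than counting error. Xaf1 and Mx1 did not, their ratios standing at 1.14 to each other (exact interval 0.966 to 1.35). Neither did Ifi27l2a and Rtp4, at 1.00 (0.934 to 1.07). Isg20 and Ifi44 differed narrowly, at 1.21 (1.03 to 1.41). These intervals do not depend on library size, and they hold no spread between cultures.

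The order by difference in level was another one. With UNE-C1, Isg20 was higher by 879 CPM and Mx1 by 736 CPM, followed by Ifi27l2a with 564 and Ifi44 with 560 CPM. The differences were 363 CPM for Rtp4, 142 CPM for Mx2, 59.6 CPM for Xaf1 and 57.4 CPM for Ifi35. Isg20 alone made up 26.1% of the summed difference, and Mx1, with the fifth ratio, 21.9%.

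The make-up of the effector gene reads differed between the libraries. In the control, Mx1 took 32.0% of the reads on the 9 genes (Clopper-Pearson 95% interval 31.0 to 33.0), Ifi27l2a 31.0% and Rtp4 20.0%. In the UNE-C1 library these shares were 23.2% (22.8 to 23.5), 18.6% and 12.0%. Isg20 went from 4.48% (4.04 to 4.95) to 23.4% (23.0 to 23.7) and Ifi44 from 3.46% to 15.0%. Mx2 stood at 1.74% and 3.91%, while the shares of Xaf1, 2.22% and 1.83%, differed little. Ifi35, with 424 reads in the control, stood at 5.16% and 2.15%. Mx1, Ifi27l2a, Rtp4 and Ifi35 thus took a smaller part of the total beside Isg20 and Ifi44.

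**Figure D3:**
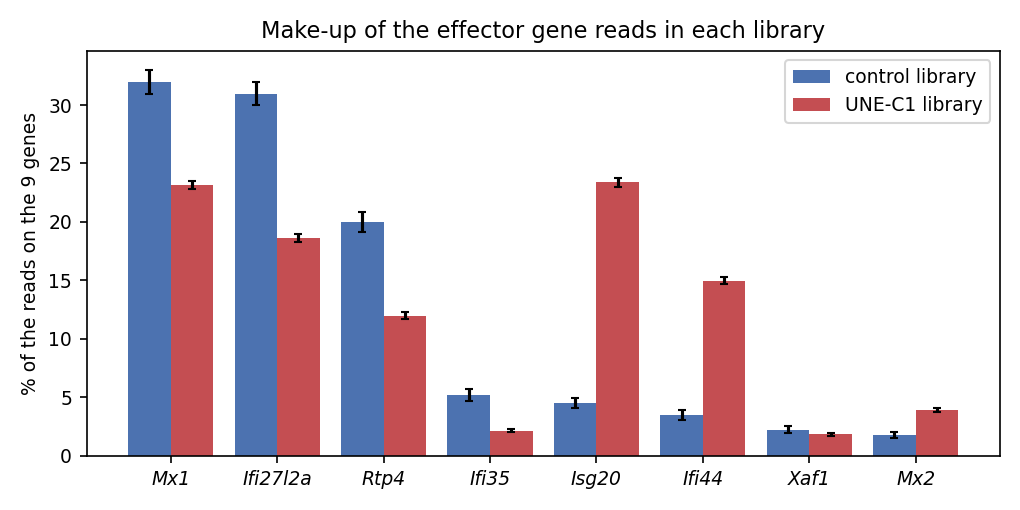
Share of the reads on the 9 genes taken by each of the 8 detected genes, in % of 8216 reads in the control (blue) and 54633 in the UNE-C1 library (red); error bars are 95% Clopper-Pearson intervals and cover counting error only. Mx1, Ifi27l2a and Rtp4 lead among the control bars, where Isg20 is at 4.48%; with UNE-C1, Isg20 and Mx1 are level at 23.4% and 23.2%.

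Genes next to the 9 on the chromosomes were set beside them, taking the nearest 2 named protein-coding genes on each side. Of 29 such genes that are not themselves among the 9, 10 had no read in either library and 9 passed the floor. Of those 9, Ddx24, an RNA helicase near Ifi27l2a, was at least 2-fold higher (184 and 381 CPM), against 9.31% of all genes. Ifi27 and Dscam were at least 2-fold lower, against 9.42% of all genes. The median log2 fold change of those 9 was -0.35. Rpl27 and Vat1, on either side of Ifi35, had log2 fold changes of -0.73 and -0.35, although Vat1 lies 47 bases from Ifi35. Fbxo39, 711 bases from Xaf1, had no read. Fam3b, a cytokine-like gene that lies between Mx1 and Mx2, had 10 and 39 reads and was below the floor.

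**Figure D4:**
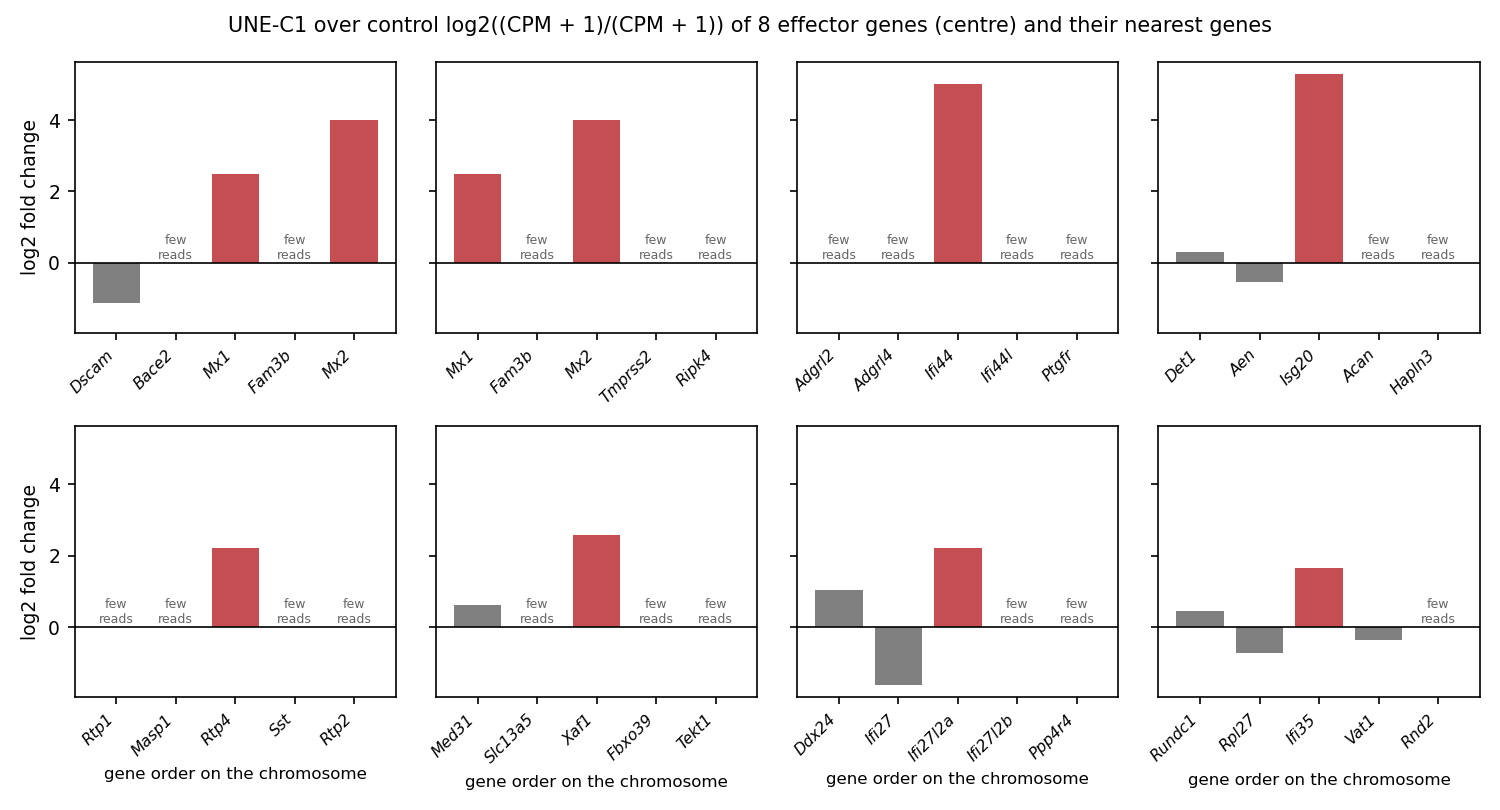
Log2 fold change (UNE-C1 over control, log2((CPM + 1)/(CPM + 1))) of 8 effector genes (red, centre of each panel) and of the nearest 2 named protein-coding genes on each side (grey), in chromosome order and not to distance; "few reads" marks genes below 50 reads in both libraries. Red bars off centre are Mx1 and Mx2, which fall in each other's panels; each effector gene stands above the grey bars of its own panel, the highest of which, Ddx24, is at 1.04.

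Interferon signalling genes, feedback inhibitors among them, differed less uniformly. Of 42 genes on the list of interferons, receptors, kinases, STAT and IRF factors and feedback inhibitors, 23 passed the floor. Of these, 10 were at least 2-fold higher (against 9.31% of all genes) and 1, Ifnlr1, at least 2-fold lower (against 9.42%). The median log2 fold change over the 23 was 0.69. Of the ligands, Ifnb1 had 0 and 1 reads and Ifng 0 and 2, Ifnk had 2 and 0, and the other 16 interferon genes of the list had none in either library. The chain Ifnar1 of the type I receptor had a log2 fold change of 0.01 and its partner Ifnar2 one of 1.23. Of the complex that binds the ISRE, Stat2 was at 46.2 and 327 CPM (log2 fold change 2.80) and Irf9 at 100.4 and 167 CPM (0.72).

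Among the IRF factors, Irf7, which amplifies interferon production, had 649 and 20200 reads (log2 fold change 5.16), between Ifi44 and Isg20 in fold. Irf1 stood at 1.42 and Irf3, the factor activated by phosphorylation rather than induction, at -0.19. The feedback inhibitors Socs1 (103 and 1812 reads), Usp18 (483 and 4984) and Socs3 (360 and 2900) had log2 fold changes of 4.17, 3.56 and 3.19. On a separate list of 50 other interferon-stimulated genes, chosen with earlier results of these data known, all 50 passed the floor. Of these, 44 were at least 2-fold higher (against 9.31% of all genes) and none at least 2-fold lower (against 9.42%). Their median was 2.40 beside 2.55 for the 8 effectors. Rsad2, Oasl1, Cmpk2, Ifit3, Ifit2 and Ifi205 led the list, from 6.59 to 4.87. These 6 include 5 with a higher fold change than Isg20.

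The genes with the most similar pair of levels were found by the distance between log2(CPM + 1) values over the 2 libraries, among 9900 named genes. The nearest to Mx2 was Phf11a (155 and 2226 reads, distance 0.12), to Xaf1 the immunity-related GTPase gene Irgm2 (197 and 969 reads, 0.11), and to Isg20 the surface protein gene Ly6a (318 and 11516 reads, 0.25). Genes from other programs were nearest to the rest. They were the cytokine gene Mif for Mx1 (2414 and 13224 reads, 0.14), hexokinase Hk2 for Ifi27l2a (2639 and 10164 reads, 0.05), the glycolytic enzyme Pgk1 for Rtp4 (1615 and 7296 reads, 0.16), the mitophagy gene Bnip3 for Ifi44 (317 and 6777 reads, 0.31) and Pmvk for Ifi35 (419 and 1137 reads, 0.05). With 2 libraries such likeness says only that the levels match.

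Markers of other cell types differed between the same libraries. Of 14 neutrophil markers, 13 were in the files and past the floor, 12 were at least 2-fold lower (against 9.42% of all genes), and their summed level was 8335 CPM without and 3216 CPM with UNE-C1. Macrophage and monocyte markers differed in both directions around a similar sum, 4523 and 4203 CPM. Of the 11 of 12 past the floor, 3 were at least 2-fold higher, against 9.31% of all genes. They were Fcgr1 (12.0-fold), Ly6c2 (3.34-fold) and Adgre1 (3.00-fold). At least 2-fold lower were 5, against 9.42%, with Mrc1 (13.7-fold) and Ccr2 (5.33-fold) among them. Plasmacytoid dendritic cells are known as strong makers of interferon. Their 7 markers summed to 133 and 441 CPM. Of this sum Bst2, itself an interferon-stimulated gene, gave 38.4 and 301 CPM, and Tcf4 81.9 and 127 CPM. Of the 4 past the floor, 1 (Bst2) was at least 2-fold higher, against 9.31% of all genes. Tcf4 was 1.55-fold higher, Pacsin1 1.75-fold higher and Ccr9 1.70-fold lower. Siglech, below the floor, had 9 and 0 reads. Markers of B cells summed to 336 and 94 reads and those of T and natural killer cells to 32 and 26. Mast cell, basophil and eosinophil markers summed to 1233 and 810 CPM, erythroid and megakaryocyte markers to 298 and 159 CPM, and stromal markers to 93 and 317 reads. In such bulk samples fewer cells of a type and less RNA per cell cannot be told apart. The part of these markers in the differences of the 8 genes was not tested.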

How the data were processed

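RNA was read from 3' ends with a QuantSeq kit from 500 ng of total RNA, per the labels' protocols. The deposited values are raw read counts by gene symbol, a unit taken from the whole numbers and unequal totals. Bowtie2, edgeR and mm10 (GRCm38) are named, without role or version, per the submitters' processing notes; the sources used here do not give the counting tool, annotation, strand setting or handling of multiply mapped reads. Each file had 23282 entries. The 35 repeated symbols were summed, which left 23238. No entry was blank.

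Effective library sizes came from TMM (edgeR 4.0.16, R 4.3.3), with factors of 1.13 (control) and 0.888 (UNE-C1), the pseudocount was 1 CPM and the floor 50 reads in at least 1 library (2.99 and 3.52 CPM). Plain CPM ratios have exact (Clopper-Pearson, conditional binomial) 95% intervals, and ratios of ratios exact conditional intervals (scipy 1.17.1). A count of 0 was taken to allow 3 reads. PCR copies cannot be told from molecules, so intervals and floors cover counting error only. With 1 library per group no count model was fitted. The procedure was run on simulated counts that held counting error only, so that run says nothing about spread between cultures. The alternatives were other library scalings, with DESeq2 1.42.0 among them, pseudocounts, floors and leaving out Rn45s, the ribosomal RNA precursor, which held 5.21% and 3.98% of reads.

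Named are the 9 members; relatives with a read; up to 6 genes of each list with the largest difference, with fixed signalling genes; for each member the gene with the nearest levels; and the nearest 2 named protein-coding genes on each side (GENCODE M21), of which those with values of interest are given. Members and lists were chosen with earlier results of these data known. Dendritic and other cell type markers were named after their values were seen. One result is not reported here.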

Additional observations from a re-analysis of the deposited data

How the results depend on the processing

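The 2-fold count stayed at 8 of 8 detected genes, and the 8-fold count at 3, under each of the 8 alternatives (DESeq2 size factors, upper-quartile factors, total counts, pseudocounts of 0.1 and 5, no floor, a floor of 200 reads, and Rn45s left out). Their median log2 fold change of 2.55 was 2.46 with upper-quartile factors, 2.21 with total counts and 2.36 with a pseudocount of 5. Total counts moved the median of all genes by -0.32, and of the genes past 2-fold 28.0% were then higher, against 49.7% with TMM. The count of all genes at least 2-fold lower, 986, was 1693 with total counts, 484 with a pseudocount of 5 and 579 with the floor of 200. Signalling genes at least 2-fold higher numbered 7 to 10 and other interferon-stimulated genes 43 to 44. The order by fold differed only with a pseudocount of 5, where Mx1 passed Xaf1. Ifi35, the lowest of the 8, ranged from 1.33 to 1.70 and Isg20 from 4.96 to 5.35. No paired analysis was possible because each group had 1 library. Counts were too low for a fold of Ifi44l, Ifnb1 and Ifng, which had 0 to 2 reads. Whether depth, absence or, for Ifi44l, the tagged reference error lies behind this was not tested.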

Other observations

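On the list of 50 other interferon-stimulated genes, 6 were not at least 2-fold higher, and these were named after their values were seen. Ifitm6, with 194 and 165 reads, and Ifitm1, with 978 and 914 reads, had log2 fold changes of 0.00 and 0.14, and Ifitm2 one of 0.60, whereas Ifitm3, an endosomal restriction factor of the same family, stood at 571 CPM without UNE-C1 and 4069 CPM with it (log2 fold change 2.83). Ifi30, a lysosomal thiol reductase of antigen processing, was abundant in both libraries, at 691 and 903 CPM. Samhd1, which depletes nucleotides, was 1.85-fold higher (95% interval 1.80 to 1.90), and Apobec3, a cytidine deaminase, 1.84-fold higher (1.71 to 1.98).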
